A study of Mus musculus with 4 samples.

Results

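The locus of Gnrhr (ENSMUSG00000029255), the mouse gene of the gonadotropin-releasing hormone receptor, was described in chromatin accessibility data. Its members were all called peaks whose nearest gene in the authors' annotation was Gnrhr, together with every peak centred within 100 kb of the Gnrhr start site. They amounted to 30 peaks over 4 libraries, which merged into 19 regions of the 255101 in the whole series. The outermost member lay 98.4 kb from the start site, and the nearest peak outside the limit lay 106 kb from it. The assay was ATAC-seq, in which a transposase cuts open DNA and tags it with sequencing adapters, so that read density marks accessible chromatin and not transcription. The cells were LβT2b (LβT2 in the text of the series, LbT2b in the sample titles), an established mouse line with features of the pituitary gonadotrope, seeded at 350000 per well and held in serum-free medium overnight. Both groups then received 6 h of treatment: vehicle in 2 libraries (vehicle 1 and 2), and 1 nM activin A in the other 2 (activin 1 and 2). All libraries come from this 1 line, and the labels do not say whether they came from separate cultures, so p-values measure only the spread between these libraries, which may be technical.

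Gonadotropin-releasing hormone from the hypothalamus reaches the gonadotrope through the receptor that Gnrhr encodes. The receptor couples to the G proteins Gq and G11 and to phospholipase C, and drives release and synthesis of luteinizing and follicle-stimulating hormone. The proximal mouse promoter is known for a gonadotrope-specific element bound by steroidogenic factor 1 (SF-1, product of Nr5a1), an AP-1 site, and elements that respond to activin through SMAD, AP-1 and forkhead proteins. Activin A is a ligand of the transforming growth factor β family that signals through SMAD2, SMAD3 and SMAD4.

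Gnrhr occupies chr5:86180754-86197901 (GRCm38) on the reverse strand. All 14 peaks that the authors' annotation assigned to it placed its start site at 86197901, which is also the end of the RefSeq gene. The promoter below is shown because the called promoter peak covered all of it in every library. That of Cga, the gene of the α subunit shared by the glycoprotein hormones, is set beside it. It is another gonadotrope promoter that was open in every library with fewer CG dinucleotides than most open promoters. Both run 5′ to 3′ on the strand of the gene, from 250 bases before the start site to 50 bases from it on (RefSeq, GRCm38.p6). Capitals mark the letters that matched 1 of the motifs named next.
Gnrhr, chr5:86197852-86198151, reverse strand: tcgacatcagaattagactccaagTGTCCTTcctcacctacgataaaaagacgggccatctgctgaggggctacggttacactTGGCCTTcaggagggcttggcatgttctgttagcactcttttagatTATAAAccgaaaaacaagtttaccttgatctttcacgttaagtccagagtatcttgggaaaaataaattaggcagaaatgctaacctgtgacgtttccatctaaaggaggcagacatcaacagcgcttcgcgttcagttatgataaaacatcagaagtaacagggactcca
Cga, chr4:34893529-34893828, forward strand: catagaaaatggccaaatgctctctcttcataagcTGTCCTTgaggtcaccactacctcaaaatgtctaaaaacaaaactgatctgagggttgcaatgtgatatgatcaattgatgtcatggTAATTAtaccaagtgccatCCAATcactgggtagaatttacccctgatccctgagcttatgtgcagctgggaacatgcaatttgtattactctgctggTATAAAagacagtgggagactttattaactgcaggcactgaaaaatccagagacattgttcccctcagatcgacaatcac

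The motifs were searched on both strands, and shares are of 32817 RefSeq promoter windows of the same length. The Gnrhr window held 2 matches to AAGGNCA, the half-site of SF-1, both on the opposite strand: TGTCCTT at 226 to 220 bases and TGGCCTT at 167 to 161 bases upstream. Of all windows, 20.3% held that motif. A match to the letters of a TATA box, TATAAA, stood 121 to 116 bases upstream (13.6% of windows had 1 at any position). The match in Cga stood 30 to 25 bases upstream. Cga also held the half-site TGTCCTT, the LIM-homeodomain site TAATTA (5.30% of windows), which LHX3 can bind, and the CCAAT box of NF-Y (37.4%). The letters of these last 2, of an AP-1 site (TGANTCA, 7.81%), of a cAMP response element (TGACGTCA, 1.79%), of a SMAD palindrome (GTCTAGAC, 0.213%) and of a forkhead site (TGTTTAC, 3.65%) were not in the Gnrhr window. That window ends 250 bases upstream of the start site, and the sequence farther upstream, where known elements of this promoter also lie, was not searched. No matched motif overlapped another in either window.

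The Gnrhr promoter had 10 CG dinucleotides and 43.3% GC. Among all promoter windows the medians were 7 and 52.7%. Those whose start site lay inside a called peak of all 4 libraries, 10707 or 32.6%, had medians of 24 CG dinucleotides and 63.3% GC, so Gnrhr was on the poor side of the open promoters. Windows with at most as many CG dinucleotides as Gnrhr were open in all libraries in 4.98% of 19246 cases, and windows with more in 71.8%. Gnrhr was 1 of 958 such poor but open windows, which made up 8.95% of the open ones. Others were Cga, with 1 CG dinucleotide, and Tgfbr3l, also a gonadotrope gene, with 7. Fshb, which encodes the β subunit of follicle-stimulating hormone, had 3, and Lhb, the gene of the luteinizing hormone β subunit, had 4. Neither start site lay inside a called peak of all libraries.

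**Figure D1:**
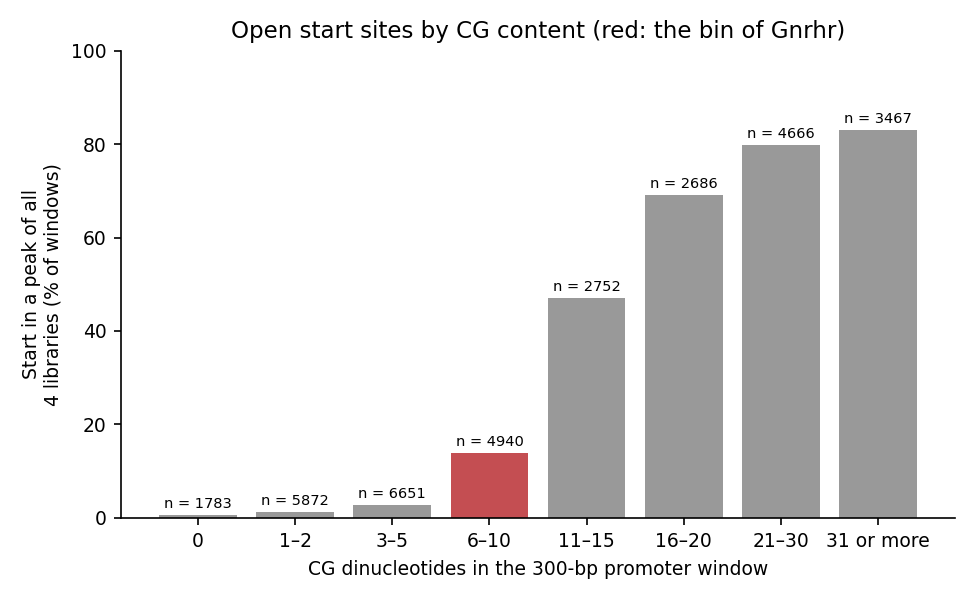
Share of RefSeq promoter windows (vertical axis, percent) whose start site lay in a called peak of all 4 libraries, by the number of CG dinucleotides in the window (horizontal axis); n is the number of windows. The red bar holds Gnrhr, and 13.9% of its 4940 windows were open in all libraries, against 83.0% of the 3467 windows with 31 or more.

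High-quality autosomal reads ran from 172146474 to 224226184 per library, that is, alignments left after removal of duplicates and low-quality alignments. The totals of the treatments overlapped. Enrichment of reads at start sites was 2.72 and 2.48 with vehicle against 3.12 and 3.04 with activin, and short fragments outnumbered mononucleosomal ones by a factor of 2.95 and 3.07 against 3.48 and 3.49. Both measures were higher in both activin libraries, and their part in the results below was not tested. Vehicle 2 stood apart with 178358 called peaks, where the others had 70692 to 85112. With 2 libraries against 2, an exact permutation test cannot give a 2-sided p under 0.333.

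Of the 19 regions, 3 had a peak in every library. These were the Gnrhr promoter, a region in intron 1 of Gnrhr 5.70 kb downstream of the start site, and the promoter of Uba6 25.1 kb downstream. Uba6, which encodes a ubiquitin-activating enzyme and is transcribed from the same strand, is the next gene beyond the 3′ end of Gnrhr. Peaks called separately in each library depend on its depth and background. The window held 4 peaks in vehicle 1, 14 in vehicle 2, 7 in activin 1 and 5 in activin 2. The groups overlapped, at a mean of 9 ± 7.07 peaks with vehicle against 6 ± 1.41 with activin (SD, n = 2; 2-sided exact permutation p = 1). The excess of vehicle 2 decided the direction: without it the difference was 2 peaks in favour of activin. At a −log10 q of at least 5 the libraries had 2, 2, 3 and 2 peaks.

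**Figure D2:**
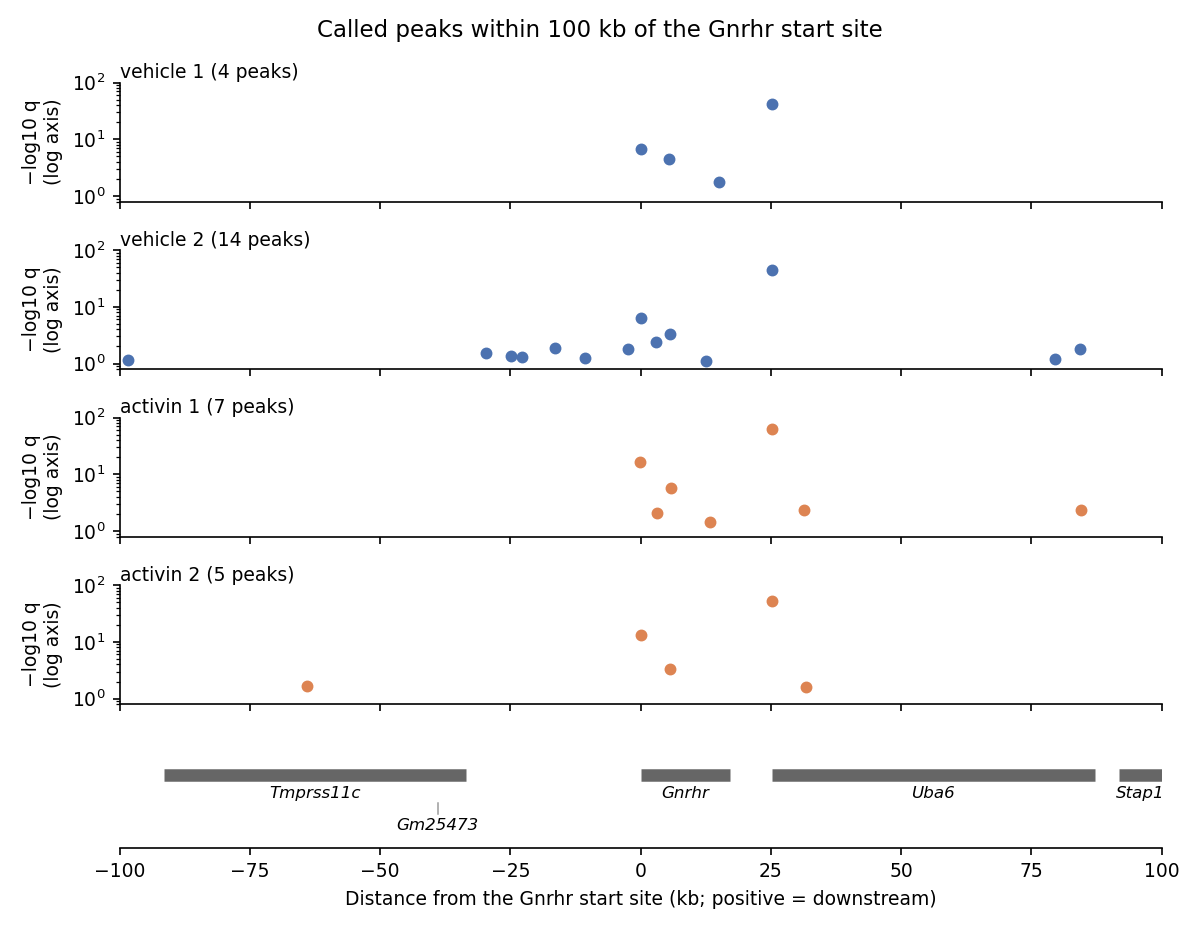
Called peaks of each library (points, 1 panel per library) by distance from the Gnrhr start site in kb (horizontal axis, positive downstream) and by −log10 q (vertical axis, log scale), with genes as grey bars below. The peaks at the promoter, 5.70 kb and 25.1 kb recur in all libraries, and vehicle 2 has 14 peaks against 4, 7 and 5.

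The promoter region covered chr5:86197304-86198810 over all libraries. Its −log10 q, which the authors' peak caller gives as the strength of evidence for a peak, was 6.82 in vehicle 1, 6.37 in vehicle 2, 16.5 in activin 1 and 13.0 in activin 2. The activin libraries were both above the vehicle libraries, by a ratio of means of 2.23. That order was common: it held in 71.7% of 13871 regions with 1 comparable peak in each library (shared regions), where the median ratio was 1.57. Of the shared regions, 10.6% had a higher ratio than the Gnrhr promoter, and of the 5697 promoters among them 6.48% did. The fold enrichment over the caller's background, also the authors' value, was 3.6 and 3.46 with vehicle against 4.38 and 4.52 with activin, again without overlap (61% of shared regions had this order, with a median ratio of 1.14 against 1.26 here).

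The called interval of the promoter was also longer with activin. It measured 809 bp in vehicle 1, 796 bp in vehicle 2, 1507 bp in activin 1 and 852 bp in activin 2, an order found in 38.1% of shared regions. The length ratio of 1.47 was exceeded by 2.87% of shared regions, and activin 1 set it. In that library the interval reached 909 bp upstream of the start site, whereas it reached 285, 284 and 323 bp in vehicle 1, vehicle 2 and activin 2. The downstream ends were closer together, from 511 to 597 bp.

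High-quality reads in the promoter peak numbered 255 in vehicle 1, 270 in vehicle 2, 642 in activin 1 and 375 in activin 2. As reads per 1000000, both activin libraries were above both vehicle libraries, which was the order of 75.6% of shared regions. Divided by the length of the library's own interval in kb as well, the values were 1.83 and 1.53 with vehicle against 1.90 and 2.47 with activin. Both activin values lay above both vehicle values, as in 62.2% of shared regions, and the smallest gap, between vehicle 1 and activin 1, was smaller than the difference between the activin libraries. The means were 1.68 ± 0.210 and 2.19 ± 0.405 (SD, n = 2; 2-sided exact permutation p = 0.333).

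Relative to the shared regions, the change in density of the Gnrhr promoter was smaller than its error. On the scale of log2 (reads + 1) per kb, centred on each library's median, it was −0.55 and −0.63 with vehicle against −0.72 and −0.27 with activin, so the groups overlapped (both activin libraries were higher in 20.9% of shared regions). The log2 change was 0.10 ± 0.17 (SE; limma, adjusted p = 0.890 by Benjamini-Hochberg over all shared regions). No shared region passed an adjusted p of 0.05 (0%, 0 of 13871), and 9.53% had an unadjusted p under 0.05. The direction rested on activin 2: without it the change was −0.13, and without activin 1 it was 0.32. Without division by interval length the change was 0.44 ± 0.15 (limma, unadjusted p = 0.0119, adjusted p = 0.314), which 1.59% of shared regions exceeded. Scaled to all high-quality reads, which moved the median region by 0.27 towards activin, it was 0.37 ± 0.19 (limma, adjusted p = 0.169).

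**Figure D3:**
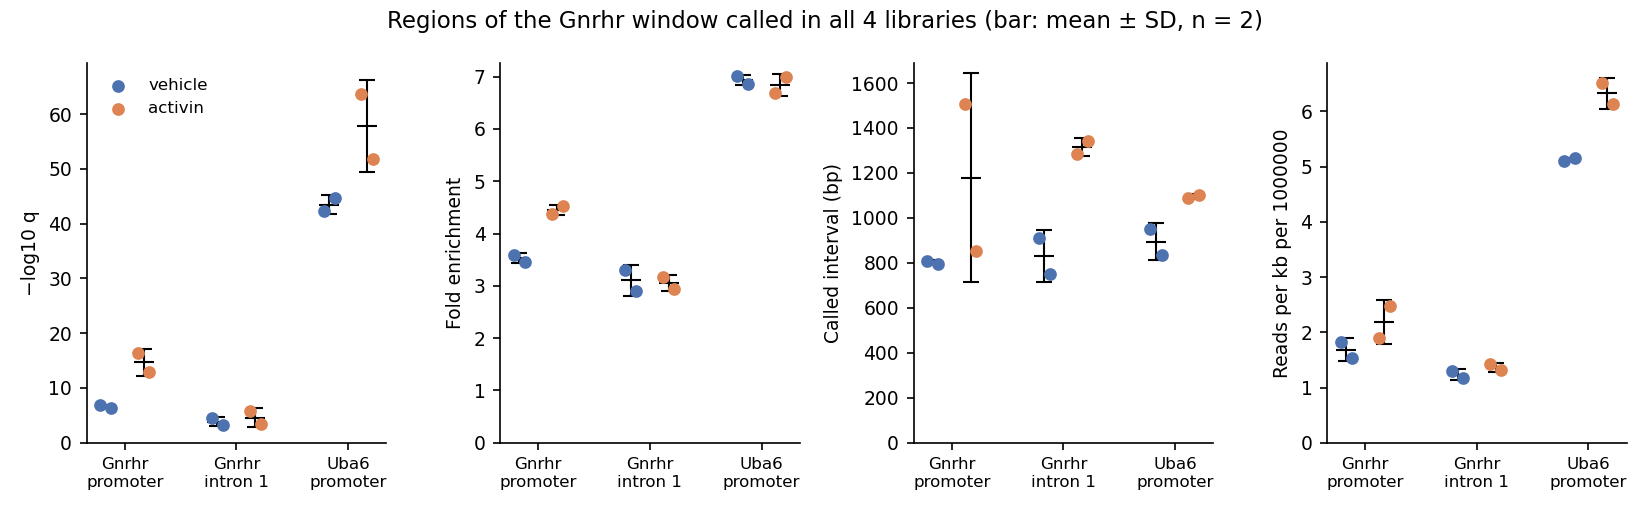
The 3 regions of the window called in every library, with each library as a point and the mean ± SD (n = 2) as a black bar, for −log10 q, fold enrichment, called interval in bp and reads per kb per 1000000. At the Gnrhr promoter both activin libraries lie above both vehicle libraries in every panel, and the intron shows no such order in −log10 q and fold enrichment.

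Within intron 1 the region called in all libraries spanned chr5:86191531-86192874. Its −log10 q was 4.46 and 3.31 with vehicle against 5.84 and 3.37 with activin, and the groups overlapped. The fold enrichment overlapped as well (3.31 and 2.90 against 3.17 and 2.95). These values were above the median of 1.46 to 1.78 over intron peaks of the same lists, of which 7.11% to 21.9% had a higher −log10 q. 

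As at the promoter, the intron interval was longer with activin, at 1286 and 1344 bp against 912 and 750 bp with vehicle. Its length ratio of 1.58 was exceeded by 0.851% of shared regions. The additional length lay at the end nearer the 3′ end of the gene: the intervals began at 86191541 and 86191531 with activin and at 86191947 and 86191958 with vehicle. Reads numbered 204 and 193 with vehicle against 411 and 313 with activin. The density was 1.3 and 1.16 reads per kb per 1000000 with vehicle against 1.43 and 1.31 with activin, which barely separated the groups. Relative to the shared regions the log2 change was −0.13 ± 0.17 (SE; limma, adjusted p = 0.836). The sign depended on the scale: it was 0.39 ± 0.19 without division by length (limma, adjusted p = 0.498) and 0.15 when scaled to all high-quality reads.

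The Uba6 promoter gave a measure of a strong peak in the same stretch of DNA. Its density was 5.11 and 5.15 reads per kb per 1000000 with vehicle against 6.52 and 6.13 with activin, and its −log10 q was 42.2 and 44.7 against 63.7 and 51.8. Both quantities were higher in both activin libraries, but the fold enrichment was not (7 and 6.87 against 6.69 and 6.99). The centred log2 change was 0.03 ± 0.10 (SE; limma, adjusted p = 0.949), and −0.066 without vehicle 1. The density of the Gnrhr promoter was 0.359 and 0.298 of that of Uba6 with vehicle against 0.291 and 0.404 with activin. This ratio of densities within a library overlapped between the treatments (exact permutation p = 1, 2-sided, n = 2). The ratio of reads, without division by length, did not overlap. It was 0.305 and 0.284 with vehicle against 0.403 and 0.312 with activin (exact permutation p = 0.333, 2-sided, n = 2). The intron had 0.710 and 0.759 of the density of the Gnrhr promoter with vehicle against 0.750 and 0.529 with activin.

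**Figure D4:**
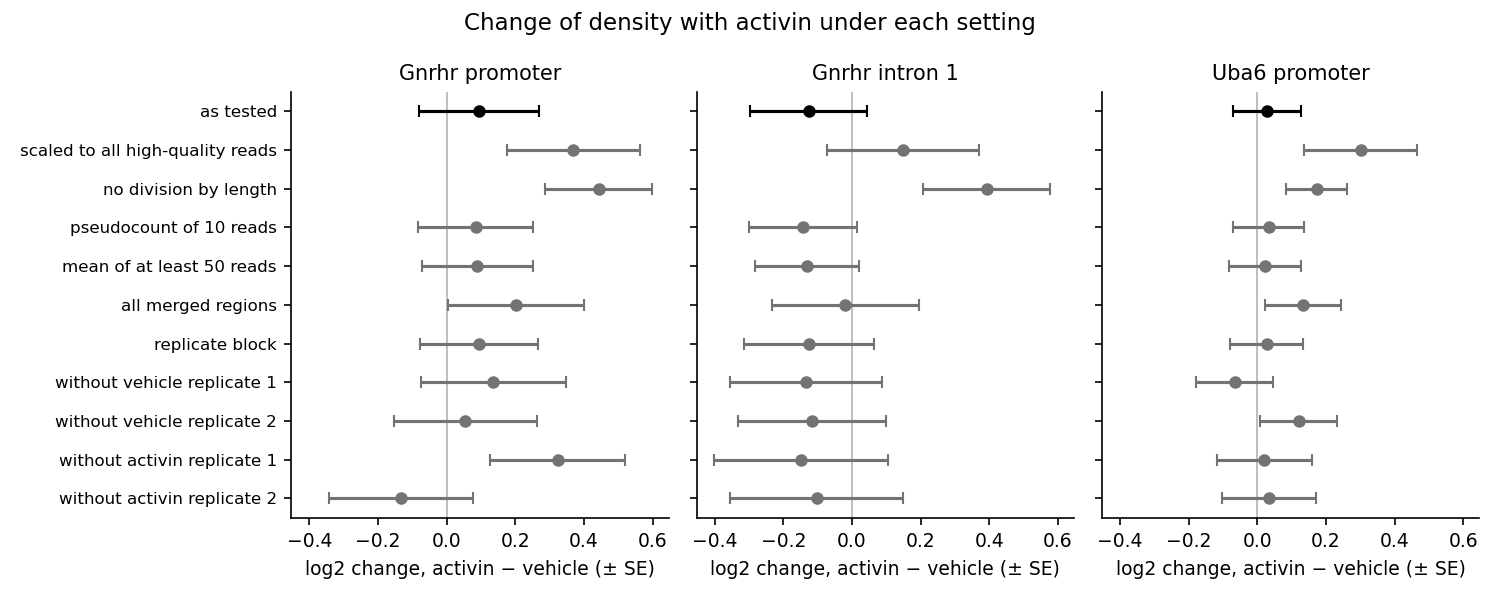
Change of density with activin (horizontal axis, log2, ± SE) for the Gnrhr promoter, the Gnrhr intron and the Uba6 promoter, under the test as described (black) and each alternative (grey). The Gnrhr promoter lies between −0.13 and 0.44, and the intron, which goes from −0.15 to 0.39, is above 0 when length is not divided out or when all high-quality reads set the scale.

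The other 16 regions were weak, with a −log10 q of 1.11 to 2.37 and 20 to 147 reads, and 14 of them were called in 1 library alone. Vehicle 2 accounted for 9 of these 14, activin 1 and activin 2 for 2 each, and vehicle 1 for 1. A short region in intron 1, 3.02 kb downstream of the start site (chr5:86194759-86194999), was called in vehicle 2 and activin 1, at densities of 1.63 and 2.01 reads per kb per 1000000, close to those of the promoter. Both intervals there were short (200 and 186 bp) and held 72 and 84 reads. The other region called in these same 2 libraries lay in the last intron of Uba6, 84.4 kb downstream. Neither can be set against treatment, since each has 1 library of each.

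Upstream of the promoter there was no region called in more than 1 library. Of the 8 regions there, 7 were peaks of vehicle 2, the nearest 2.54 kb upstream (chr5:86200334-86200543, −log10 q 1.80, 70 reads). The eighth was a peak of activin 2 in an intron of Tmprss11c, 64.1 kb upstream. Tmprss11c belongs to a family of transmembrane serine proteases, and no library had a peak at its annotated start. Downstream, inside the gene, vehicle 2 had a peak on exon 2 (chr5:86185283-86185460, −log10 q 1.11), activin 1 had one 13.3 kb from the start, short of the RefSeq 3′ end, that HOMER labelled a transcription end (−log10 q 1.43), and vehicle 1 had one in an intron, 15.1 kb from the start (−log10 q 1.79).

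Among all promoter-annotated peaks of its library, the Gnrhr promoter stood near the middle by −log10 q: 53.7% of them had a higher value in vehicle 1, 41.6% in vehicle 2, 41.6% in activin 1 and 42.7% in activin 2. By density it was lower, with 76.7%, 72%, 76.8% and 64.8% of promoter peaks above it. Among all peaks of any kind, 5.72% to 11.5% had a higher −log10 q.

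Among genes of gonadotrope function, 12 of 13 had a peak centred within 1 kb of a start site in all libraries, the exception being Fshb with none in any. By the same rule 50.9% of 21883 RefSeq protein-coding genes had such a peak. That share takes in promoters of every CG content, and the part of CG content in the count was not tested. Gnrhr had the lowest mean density of these 12 with vehicle and with activin. Its neighbours in that order were Foxl2, a forkhead factor of gonadotropes (2.22 and 1.87 with vehicle, 2.84 and 2.55 with activin), and Pitx1, a homeodomain factor (2.45 and 2.11, then 2.46 and 2.27). The activin values of Gnrhr overlapped those of Pitx1, and its vehicle values did not reach those of Foxl2. Cga stood higher, at 3.09 and 2.60 with vehicle against 4.15 and 3.94 with activin. Its −log10 q went from 9.12 and 6.05 to 22.2 and 17.7, a ratio of 2.63 beside the 2.23 of Gnrhr. Lhx3 had the highest such ratio of the 12, at 2.82. Over the 12 promoters, −log10 q was higher in both activin libraries in 8 and density in 7, near the 71.7% and 62.2% of all shared regions. Lhb, counted here by a peak centred within 1 kb although its start site was not inside a peak in every library, stood at 13.2 and 15 (−log10 q, vehicle) against 15.4 and 16.1 (activin).

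**Figure D5:**
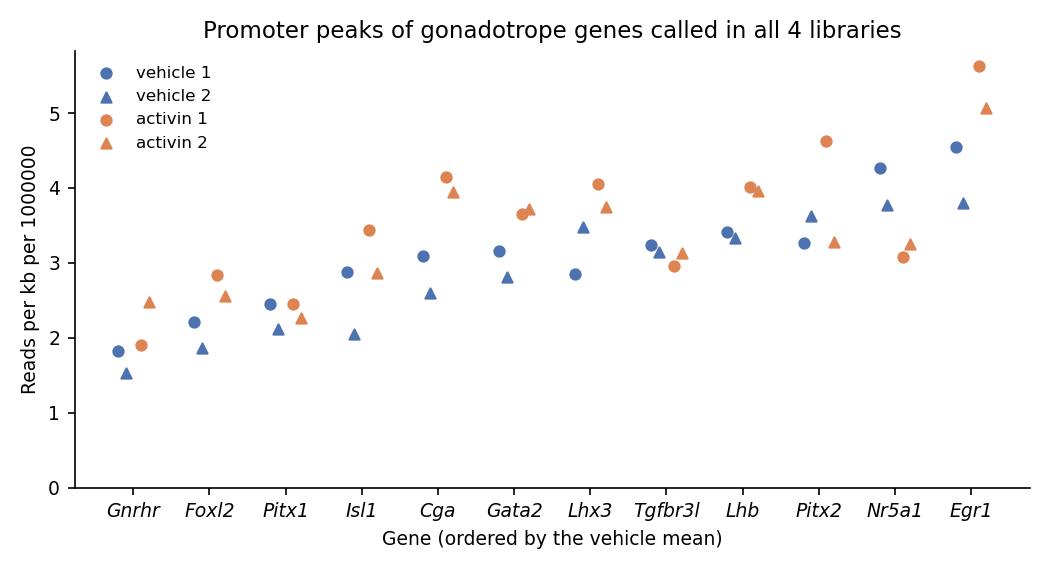
Density of the promoter peak (vertical axis, reads per kb per 1000000) of the 12 gonadotrope genes called in every library, ordered by the vehicle mean, with 1 point per library. Gnrhr has the lowest means, at 1.53 to 2.47 over the libraries, and Egr1 the highest.

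Genes of factors known to act on the Gnrhr promoter had a promoter peak in all libraries in 13 of 15 cases, against the 50.9% of all protein-coding genes. Nr5a1 was among them with a modest −log10 q (2.97 and 3.33 with vehicle, 5.15 and 4.23 with activin). Its density went the other way, at 4.27 and 3.77 with vehicle against 3.08 and 3.26 with activin. Smad2 and Smad3, whose products carry the activin signal, also had a promoter peak in all libraries. So did Fos, Fosb and Jun, whose products form AP-1. Smad4, the common partner of the receptor-activated SMADs, had one in 3 libraries, and Jund in none by these start sites. The −log10 q of the Smad4 peak was 14.3 in vehicle 1, 17.9 in vehicle 2 and 16.7 in activin 2. Activin 1 had no Smad4 peak by this rule. For 11 of the 13, −log10 q was higher in both activin libraries, the order found in 71.7% of shared regions. Density had that order for 10, against 62.2% of shared regions, and Nr0b1, on the X chromosome, had no density value. Proteins to which the receptor couples, among them Gnaq, Gna11 and Plcb1, had such a peak in all libraries in 7 of the 7 cases counted, against the same 50.9%, and 4 showed that order of −log10 q. Markers of other pituitary lineages were checked in the same way. Of Tshb, Gh, Prl and Pou1f1 none had a promoter peak in all libraries, and neither did Pomc, Tbx19 or Pax7. Gh had one in vehicle 2 and activin 1, Pomc in both vehicle libraries and Tbx19 in vehicle 2, all with a −log10 q of at most 3.20. Values as low occurred among the gonadotrope genes called in all libraries: Pitx1 had 1.63 and 2.31 with vehicle, 4.10 and 1.37 with activin. The median −log10 q of those 12 gonadotrope genes was 5.88 with vehicle and 11.8 with activin. The 50.9% takes in promoters of every CG content, and the lists differed in it. Smad3 had 25 CG dinucleotides, Gnaq 39 and Gna11 48, but Jun 15. Prl had 1, Tshb 2 and Tbx19 7, but Pax7 17 and Pomc 18. Start sites lay inside a peak of all libraries in 79.7% of windows with 21 to 30, 69.1% with 16 to 20 and 1.23% with 1 to 2. The part of CG content in these counts was not tested.

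The promoters most like that of Gnrhr over the 4 centred log2 densities, among 5696 other shared promoters, were those annotated to 4921507P07Rik, Gm25406, Gm23582, Tm9sf1 and 9330175E14Rik. Their Euclidean distances to Gnrhr were 0.139 to 0.201. They were chosen on the values of all 4 libraries, so the likeness is a description and their changes with activin carry no test.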

How the data were processed

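ATAC-seq of 2 vehicle and 2 activin libraries was used, grouped by sample title. Per the submitters' processing notes, Bowtie2, MACS2 and HOMER were used with GRCm38 (mm10); settings are not given in the sources used here. For each library the authors deposited broad peaks with a score, a fold enrichment ratio, and the −log10 of p and q, the score being 10 times the −log10 q, rounded down. HOMER annotated them, and ataqv 1.3.1 reported high-quality reads per autosomal peak, per the file headers. Depth was 172146474 to 224226184 such reads.

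Peaks were merged where they shared 1 bp. Shared regions had exactly 1 peak per library, with a common part of at least 50% of the union. Their log2 (reads + 1) per kb, centred on library medians, was tested with limma 3.58.1 (trend, no block) and Benjamini-Hochberg adjustment at 0.05. The step was tested on simulated data. Changes of regions with few reads are understated by the pseudocount. Alternatives changed the scaling, the division by length, the pseudocount, the read minimum, the overlap, the regions, the block, the peak threshold and the window, and left out each library in turn. A promoter peak of a listed gene was one centred within 1 kb of a start site (annotated distance, promoter annotation or RefSeq), and the share over all genes used the same rule, with symbols that matched no start site or peak counted as without one. Gene symbols of vehicle 1 matched RefSeq for 75.5%.

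Members, gene lists and motifs were chosen with earlier results of these data known; 1 gene of these lists is not reported here and was left out of the counts. Named genes were Gnrhr, genes of the window, members of the lists, and the 5 promoters nearest in density.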

Additional observations from a re-analysis of the deposited data

How the results depend on the processing

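The count of shared regions past the adjusted threshold, 0 as tested (1322 at an unadjusted p under 0.05), was 605 when scaled to all high-quality reads (553 higher, 52 lower), 39 without division by length, 1 with a pseudocount of 10 reads, and 0 to 9 with each library left out in turn. With the replicate block it was 4. The replicate numbers are not stated to mark a shared source, and deviations of same-numbered libraries correlated at −0.03; with the block the Gnrhr promoter gave 0.10 ± 0.17 (limma, adjusted p = 0.896). The 3 regions of the window stayed short of the adjusted threshold in all 10 alternatives that gave a value. The Gnrhr promoter kept its sign in 9 of these; with a library left out it ranged from −0.13 to 0.32. The intron ranged from −0.15 to −0.10 with a library left out, and had the opposite sign when scaled to all high-quality reads (0.15) and without division by length (0.39). The Uba6 promoter ranged from −0.066 to 0.12 with a library left out. A common part of at least 80% of the union left all 3 regions out, so it gave no value for them. The difference in peak number, −3, was 1 at a −log10 q of at least 2, 0.5 at 5, 0.5 with the same number of peaks per library, and −8 to 2 with a library left out. Regions of the window called in all libraries went from 3 to 5 with a window of 200 kb. They went to 2 at a −log10 q of at least 5, where the intron region dropped out. Listed promoters called in all libraries went from 28 to 18 at a −log10 q of at least 5 and stayed at 28 to 29 with a library left out. The causes were not tested, except that the windows and thresholds change what is counted. Reads outside called peaks were not used here, so where no peak was called no level can be given.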

Other observations

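Beyond the window, 100 to 200 kb from the Gnrhr start site, 2 of 19 regions were called in all libraries. The promoter of Cenpc1, which encodes a centromere protein, lay 132 kb downstream, at a −log10 q of 17.1 in vehicle 1, 16.9 in vehicle 2, 24.2 in activin 1 and 19.1 in activin 2. The other lay inside Stap1, which encodes a signal-transducing adaptor protein, 116 kb downstream. Its −log10 q was 1.71 and 1.28 with vehicle against 5.48 and 7.28 with activin, with 76 and 75 high-quality reads against 238 and 182. The densities, 1.10 and 0.760 reads per kb per 1000000 against 1.04 and 2.05, overlapped, and the called intervals differed (401 and 446 bp against 1019 and 498 bp). This region was singled out after its values were seen, and no test of it was made.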
